A study of Mus musculus with 48 samples.

Results

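Regulated secretion uses a small set of protein families, and 83 of the 18194 mouse genes with a probe on the array belonged to them by name. The members were every gene whose symbol began with Syt, Stx, Stxbp, Vamp, Snap, Cplx, Unc13, Rims, Rab3, Rab27, Sytl or Cadps followed by a number or a letter, with Snapc genes and Snapin left out, and each gene was read by its brightest probe over 48 arrays. Of these, 70 genes fell in the named families and 13 met only the letters of the rule: Rab30 to Rab39b, which are other Rab proteins, and Snap91, a clathrin adaptor. In all, 77 members had a level above 100 on the linear scale (6.64 in log2) in at least 1 array and were tested, and Cplx3, Cplx4, Syt6, Syt10, Syt12 and Unc13c did not.

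The families act in one sequence. Vamp proteins on the vesicle pair with Stx and Snap proteins on the plasma membrane to form the SNARE complex that drives fusion, and Stxbp proteins hold or release the syntaxins. Rab3 and Rab27, with their effectors (the Sytl and Rims proteins), bring secretory granules to the membrane, Unc13 and Cadps proteins prime them, complexins clamp the assembled complex, and many synaptotagmins sense calcium and trigger fusion. Endocrine cells of the islet release hormone granules with this machinery, whereas acinar cells release enzyme granules from their apical face and carry Vamp8, Rab27b and Rab3d for it.

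Gene expression was measured by microarray in 13 sorted cell populations of the CD-1 mouse pancreas. Among the wild type, progenitors at E11 (4 arrays) were cells of dorsal buds carrying a Sox9-eGFP BAC transgene, whose stable reporter can also label recent progeny. At E15, progenitors, acinar cells and hormone-negative endocrine progenitors (3 arrays each) came from Neurog3-eGFP transgenic pancreata and were separated by the reporter with CD133, CD24 and CD49f. Beta cells were sorted from MIP-GFP mice, in which the mouse insulin promoter drives the reporter, at E15 (4 arrays), E17 (3), P1 (3), P15 (4) and in adults (4). Alpha cells came from Glucagon-Venus mice at P1 (4) and in adults (5), and adult duct cells (4) were CD133-positive with CD45 and Ter119 excluded. Beta cells at P15 and adult beta and alpha cells came from males, pooled from at least 3 per replicate. The remaining 4 arrays held reporter-positive cells from pooled E15 embryos with both Neurog3 copies replaced by eGFP, here called Neurog3-null cells. The labels write the embryonic stages a fraction of a day later and P1 as P0, and the titles of the Neurog3-null arrays read E1.5 while their stage entry is that of the other E15 arrays; adults were 8 to 12 weeks old. Values are log2 levels, differences are in log2 units with their standard error (SE), and a member was called higher or lower at a difference of at least 1 (2-fold) with an adjusted p below 0.05 by limma.

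The labels were checked before the members were compared. Neurog3, read by the dimmer of its probes, averaged 11.56 in endocrine progenitors and 5.48 in Neurog3-null cells, but the brighter probe still averaged 10.57 in the null cells against 13.40. Ins2 and Gcg probes were bright in every beta and alpha population (means of at least 13.75 for each hormone) and in hormone-negative endocrine progenitors (12.24 and 13.89). Array levels of the hormones alone thus did not separate alpha from beta cells. The authors state that mRNAs this abundant can saturate array probes. They measured both hormones by quantitative PCR in sorted adult alpha and beta cells, which is not part of these values. The 17 macrophage and leukocyte markers on the array averaged 11.29 in Neurog3-null cells, 11.29 in adult beta cells and 11.53 in duct cells, against 5.13 to 5.90 in E11 and E15 progenitors, acinar cells, endocrine progenitors and adult alpha cells. The 12 mesenchymal markers averaged 12.04 in E17 beta, 12.61 in P1 beta and 11.17 in P1 alpha cells. The 9 neural and glial markers on the array averaged 8.27, 8.24 and 8.40 in the same populations, against 5.74 to 7.66 in the others. The 10 acinar markers on the array averaged 12.49 in duct, 12.26 in Neurog3-null and 12.15 in adult beta cells, against 13.28 in acinar cells. These arrays hold populations rather than single cells, and fewer cells of a type and less RNA per cell cannot be told apart.

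Promoter sequences of 5 members that are described below are shown because they hold letters searched for: CAGATG and CAGCTG, which are E-boxes of the kind that basic helix-loop-helix factors such as Neurog3 bind, and GGACAG and TTCAGC, which occur in the element bound by the neuronal repressor REST. Each is the 250 bases before the annotated start in RefSeq (GRCm38.p6), read 5′ to 3′ on the strand of the gene, with each match in capitals. Cadps lies at chr14:12823080-12823329 (minus strand), Cplx2 at chr13:54302306-54302555 (plus), Stx1a at chr5:135023232-135023481 (plus), Rims3 at chr4:120854549-120854798 (plus) and Sytl1 at chr4:133263088-133263337 (minus).
Cadps: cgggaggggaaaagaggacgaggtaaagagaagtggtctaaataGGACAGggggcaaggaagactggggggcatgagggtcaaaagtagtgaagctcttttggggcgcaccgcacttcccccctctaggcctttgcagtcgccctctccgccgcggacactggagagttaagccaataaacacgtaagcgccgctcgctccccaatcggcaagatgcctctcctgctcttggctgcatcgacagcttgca
Cplx2: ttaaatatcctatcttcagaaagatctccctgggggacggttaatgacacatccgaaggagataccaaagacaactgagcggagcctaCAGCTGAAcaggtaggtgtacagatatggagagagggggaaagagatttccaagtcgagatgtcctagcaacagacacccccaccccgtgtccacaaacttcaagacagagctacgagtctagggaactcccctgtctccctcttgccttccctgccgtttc
Stx1a: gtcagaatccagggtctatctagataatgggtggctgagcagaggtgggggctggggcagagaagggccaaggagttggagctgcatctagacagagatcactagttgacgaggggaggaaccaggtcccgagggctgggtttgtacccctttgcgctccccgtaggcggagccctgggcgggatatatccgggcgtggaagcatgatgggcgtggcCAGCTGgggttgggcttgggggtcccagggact
Rims3: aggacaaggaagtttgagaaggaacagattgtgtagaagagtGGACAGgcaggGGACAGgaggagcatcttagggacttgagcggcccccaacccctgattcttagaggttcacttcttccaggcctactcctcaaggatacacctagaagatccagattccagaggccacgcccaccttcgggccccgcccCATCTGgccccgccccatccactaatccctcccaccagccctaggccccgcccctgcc
Sytl1: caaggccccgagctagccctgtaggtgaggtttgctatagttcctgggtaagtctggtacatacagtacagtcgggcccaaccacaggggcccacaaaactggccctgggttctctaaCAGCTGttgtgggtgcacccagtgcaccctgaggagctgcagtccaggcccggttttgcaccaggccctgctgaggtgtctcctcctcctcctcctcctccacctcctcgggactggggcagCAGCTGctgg
In Stx1a the letters CAGCTG began 33 bases before the start, and in Sytl1 they occurred at 132 and 10 bases. In Cplx2, CAGCTG at 162 bases ran into GCTGAA, the reverse complement of TTCAGC, at 160 bases. In Cadps the match was GGACAG at 206 bases, and in Rims3 it was GGACAG at 208 and 197 bases and CATCTG, the reverse complement of CAGATG, at 58 bases.

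RefSeq windows from 250 bases before to 50 bases after the start were at hand for 63 of the 83 members (77 windows). The windows of Snap25, Syt13, Rims2, Syt7 and 16 other members were not analysed here. Of 24 windows of members that were higher in endocrine populations (below), 45.8% held CAGCTG on either strand, against 22.6% of 53 windows of the other members and 16.3% of all 32851 windows. The shares for CAGATG were 12.5%, 13.2% and 17.2% in the same order, those for GGACAG 29.2%, 20.8% and 22.2%, and those for TTCAGC 25.0%, 15.1% and 15.8%. CAGCTG is its own reverse complement and can overlap TTCAGC by several letters, and a match describes letters only.

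Across the 13 populations, the members ranged from flat to almost all-or-none. The span between a member's highest and lowest population mean was 8.64 for Snap25, 8.23 for Cadps and 7.52 for Syt13, and was at least 4 for 23 of the 77 tested members. It was under 1 for Snap29, Stx8 and Unc13b. In 42 members the mean was above 100 in all 13 populations. Counts of spans, levels and highest or lowest means were made for the members only, not for all genes. Adult alpha cells held the highest mean of 15 tested members, P15 beta cells of 12, and adult beta and duct cells of 9 each, whereas acinar cells held the lowest mean of 20 and duct cells of 13. In the heat map of the family members these groups appear as blocks.

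**Figure D1:**
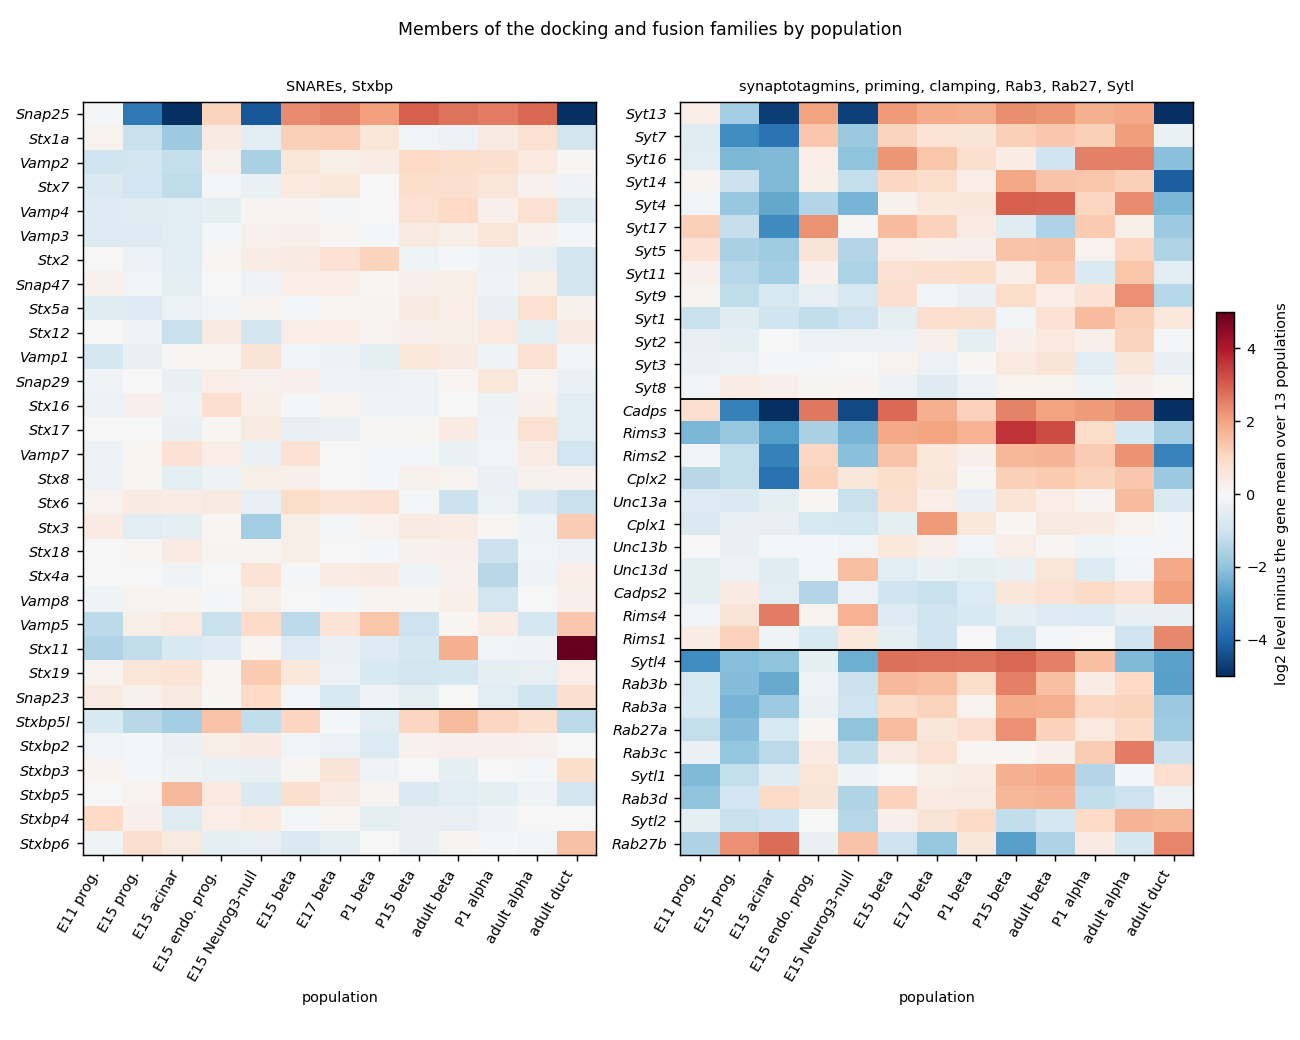
Levels of the 64 tested members of the named families (rows, grouped by role) in the 13 populations (columns), as the log2 population mean minus the mean of that gene over populations, on a colour scale from -5 to 5. Snap25, Cadps, Syt13 and Rims2 are higher in all endocrine columns than in E15 progenitors, acinar, Neurog3-null and duct cells, whereas most SNARE rows stay near 0.

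Endocrine cells were compared with non-endocrine cells first, with equal weight for the means of 8 endocrine populations (endocrine progenitors, beta and alpha cells; 30 arrays) and 4 wild-type non-endocrine populations (14 arrays). Of the 77 tested members, 31 were higher in endocrine cells and 4 were lower, against 12.3% of all 14405 tested genes higher and 10.3% lower. The median difference of the members was 0.52 and that of all genes -0.00. In 7 of the 35 called members the arrays of the 2 sides did not overlap at all. The share of all genes without overlap was not counted, here or in the later comparisons, so such counts only describe the called members. Without the 13 letters-only genes, 26 of 64 were higher and 3 lower. When the adult beta, E17 beta, P1 beta, P1 alpha and duct populations, in which macrophage or mesenchymal markers were bright, were left out, 33 members were higher, among them all 31. The share of all genes was not counted for that alternative. Among tested markers, 5 of 7 neural and glial (1 lower), 9 of 12 mesenchymal (2 lower) and 8 of 16 macrophage markers (1 lower) were higher in endocrine cells. The part of these lists was not tested.

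Snap25, the plasma-membrane SNARE of neurons and endocrine cells, had the largest difference (6.12, SE 0.127, adjusted p = 2.68e-33 by limma). Its levels were 9.42, 9.42, 9.87 and 9.68 in E11 progenitors, 6.43, 6.67 and 5.25 in E15 progenitors, 3.80, 4.22 and 4.11 in acinar cells, and 4.91, 4.46, 3.49 and 3.55 in duct cells. In endocrine progenitors it stood at 11.20, 10.85 and 10.32, and in the 27 beta and alpha arrays between 11.62 and 13.01. Every endocrine array was above every non-endocrine array, although E11 progenitors were far above the other non-endocrine cells. Every acinar and duct array was under 6.64, the level of 100 on the linear scale.

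Cadps, which primes dense-core granules, and Syt13, a synaptotagmin that lacks calcium-binding residues, followed the same order. Cadps read 11.60, 11.70 and 11.17 in endocrine progenitors, 9.95 to 11.84 in beta cells and 10.64 to 11.82 in alpha cells, against 3.14 to 3.86 in duct and 3.54 to 4.18 in acinar cells (difference 5.42, SE 0.106, adjusted p = 3.73e-34, limma). Its E11 arrays (9.49, 9.49, 10.10 and 9.71) reached the lowest beta arrays, so the sides overlapped there. Syt13 was at 13.33, 13.30 and 13.13 in endocrine progenitors and at 12.51 or more in every beta and alpha array, against 11.58, 11.46, 11.69 and 11.66 at E11, 9.31, 9.50 and 9.78 in E15 progenitors and 5.64 to 6.76 in acinar and duct cells (difference 4.82, SE 0.0735, adjusted p = 1.28e-37, limma). Syt13 thus had no overlap, with the E11 arrays nearest. Over the 13 population means, the tested members most like Syt13 were Cadps (Pearson's r = 0.98), Snap25 (0.98) and Rims2 (0.96), and the least like it was Rab27b (-0.82). These correlations rest on 13 points from the same arrays and are descriptions.

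**Figure D2:**
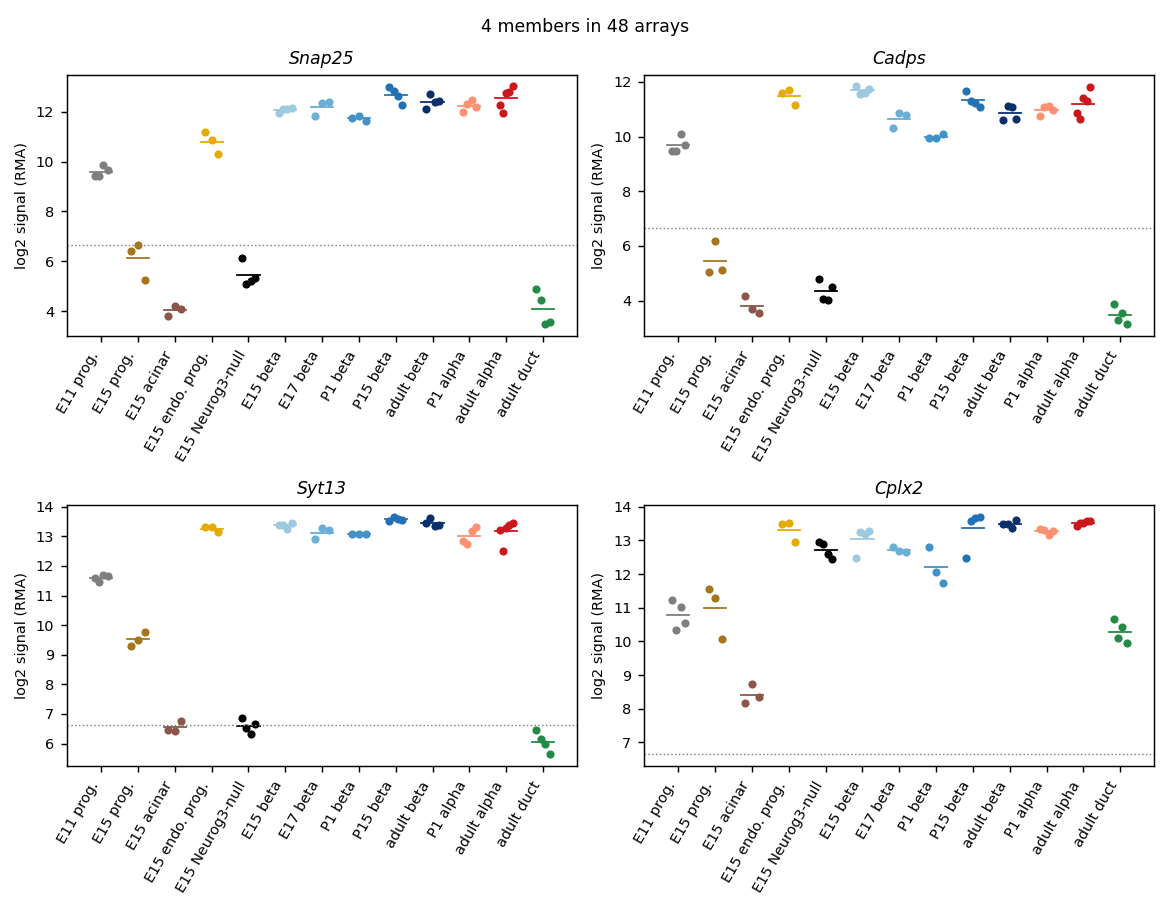
Log2 levels of Snap25, Cadps, Syt13 and Cplx2 in each of the 48 arrays (points) by population (x axis), with the population mean as a bar and the level of 100 on the linear scale as a dotted line. In Neurog3-null cells Snap25, Cadps and Syt13 sit near the dotted line or under it, whereas Cplx2 lies at 12.46 to 12.96.

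The calls are given by role, with no test between roles. Of 13 synaptotagmins tested, 9 were higher in endocrine cells and none lower (median 1.75): Syt13, Syt7, a high-affinity calcium sensor (3.14), Syt16 (2.92), Syt14 (2.87), Syt4 (2.86), Syt17, Syt5, Syt11 and Syt9, a calcium sensor of insulin granules (1.35). Syt1, Syt2, Syt3 and Syt8 were not called in this comparison. Among 9 Rab and Sytl genes, 7 were higher and 1 lower (median 1.91), with Sytl4, the granule-bound Rab27 effector granuphilin, at 4.02, Rab3b at 3.20, Rab3a at 2.65, Rab27a at 2.48, Rab3c at 1.91, Sytl1 at 1.22 and Rab3d at 1.04. Priming and clamping genes gave 5 higher and 2 lower of 11 (median 0.71), with Rims3 at 3.52, Rims2, an active-zone scaffold, at 3.29, Cplx2 at 3.00 and Unc13a at 1.08 beside Cadps.

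Of the 25 SNARE genes 4 were higher and none lower (median 0.28): Snap25, Stx1a (1.43), its partner at the plasma membrane, Vamp2 (1.35), the granule SNARE, and Stx7 (1.21), an endosomal syntaxin. Snap23, the widely expressed relative of Snap25, differed by -0.86, which passed the test (adjusted p = 1.57e-08, limma) but not the 2-fold limit. Stx3 differed by -0.02 (95% interval -0.19 to 0.14), Stx4a by -0.14 and Vamp8 by -0.16. Of 6 syntaxin-binding genes only Stxbp5l (tomosyn-2) was higher (2.10, median -0.23), and Stxbp2 (0.14) and Stxbp3 (-0.22) were not called. Of the 13 letters-only genes, 5 were higher and 1 lower (median 0.59), with Rab37 at 5.19 and Snap91 at 3.58.

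The 4 members that were lower in endocrine cells were Rab27b (-2.43, SE 0.21, adjusted p = 3.08e-13, limma), Rab32 (-1.84), Rims1 (-1.48) and Rims4 (-1.21). Relatives of 3 of them, Rab27a, Rims2 and Rims3, moved the other way. Rab27a, the Rab of insulin granules, was 2.48 higher (SE 0.108, adjusted p = 2.10e-22, limma) with no overlap, at 5.27, 5.53 and 4.92 in E15 progenitors and 6.67, 6.63 and 6.57 in acinar cells against 7.70, 7.39 and 7.54 in endocrine progenitors. Rab27b, which serves acinar granules, stood at 11.71, 10.36 and 11.67 in acinar cells and 10.85, 11.31, 10.96 and 10.51 in duct cells against 7.38, 7.60 and 9.25 in endocrine progenitors. It was also low in E11 progenitors (6.58, 6.97, 6.95 and 7.22), under the means of E15 and P1 beta cells. Rims4 was highest in acinar cells (8.09, 8.58 and 7.80) and at or under 5.48 in every beta and alpha array.

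**Figure D3:**
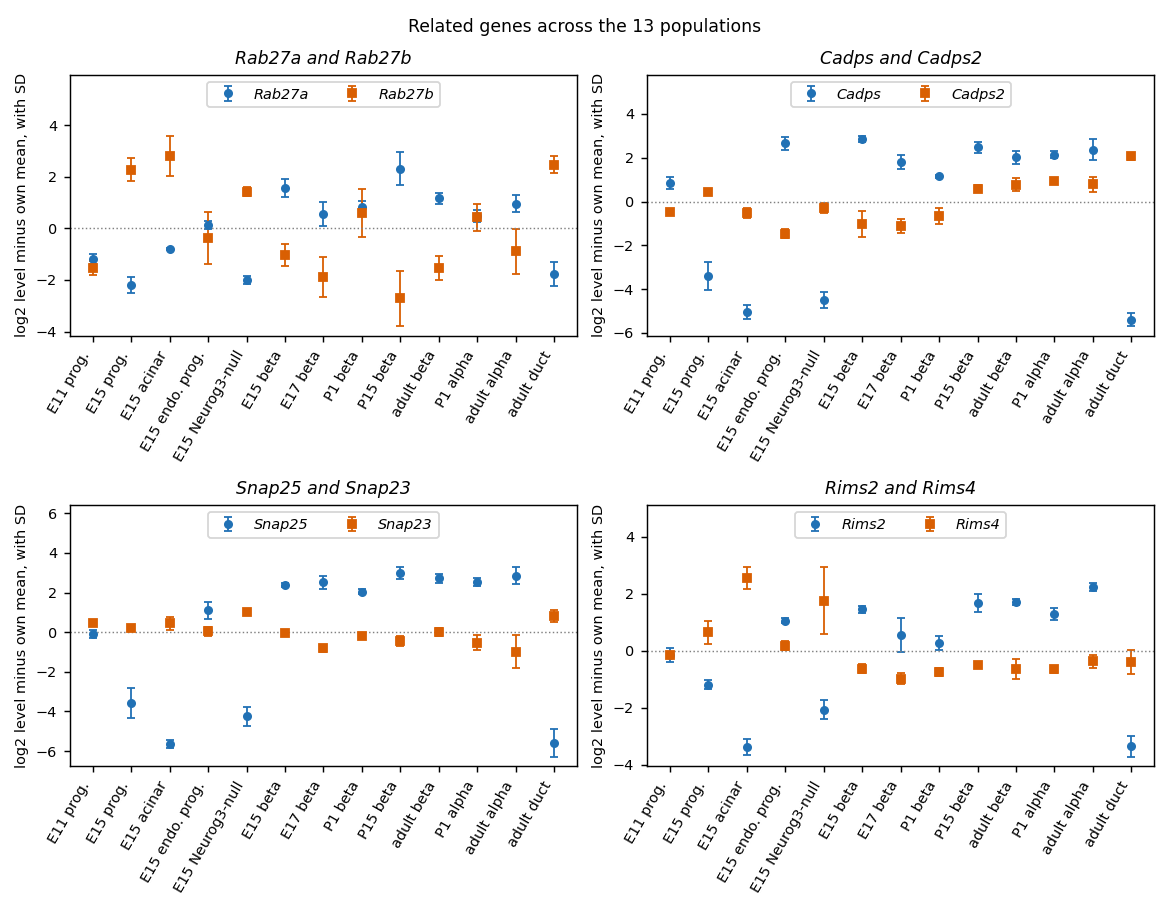
Related genes across the 13 populations (x axis): Rab27a and Rab27b, Cadps and Cadps2, Snap25 and Snap23, and Rims2 and Rims4, each as the log2 population mean minus that gene's own mean over populations, with the SD over arrays. In the E15 progenitor, acinar and duct columns Rab27b, Cadps2 (except in acinar cells), Snap23 and Rims4 (except in duct cells) lie above their own mean, and the first gene of each pair lies below its own.

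A list of 44 related genes that the rule does not cover (synaptophysins, synapsins, SV2 proteins, granule-membrane proteins and other Rab effectors) was read beside the members. Of its 42 tested genes, 16 were higher in endocrine cells and none lower (median 0.58), including the Rims partner Rimbp2 (5.62), the synapsins Syn2 (5.11) and Syn1 (4.29), the granule protein Ptprn (4.53) and Syp (4.31).

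The 2 progenitor stages differed in many members. From E11 to E15, 6 members were higher and 21 lower, against 6.25% and 7.30% of all genes, and 26 of the 27 had no overlap between the 4 and 3 arrays (median of members -0.06, of all genes -0.01). Rab37 (-4.30), Cadps (-4.24, SE 0.247, adjusted p = 6.53e-17, limma), Snap25 (-3.48, SE 0.296, adjusted p = 3.41e-12), Snap91 (-2.82), Syt7 (-2.51) and Syt13 (-2.07) were lower at E15. Of the 13 synaptotagmins 9 were lower and none higher. Stx1a (-1.27) went from 10.43 to 10.55 over the E11 arrays to 9.07, 8.79 and 9.75. The 10 endocrine hormone and factor markers on the array were lower at E15 too, with a mean of 11.23 at E11 and 6.94 at E15, and Gcg averaged 13.68 at E11; their part in the result was not tested.

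The 6 members that rose were Rab32 (3.82), Rab27b (3.79, SE 0.49, adjusted p = 8.20e-08, limma), Vamp5 (1.62), Sytl1, Rab3d and Stxbp6 (1.04 each). Rab27b was at 10.63, 10.34 and 11.20 in E15 progenitors, every array at least 3 log2 units above the E11 arrays. The 3 smallest rises depended on single arrays: Rab3d lost its call without E11 replicate 2, 3 or 4 or E15 replicate 1 or 2 (0.61 to 1.12), Stxbp6 without E11 replicate 1 or E15 replicate 1 or 3 (0.84 to 1.06), and Sytl1 without E11 replicate 3 or E15 replicate 2 or 3 (0.95 to 0.99). Acinar markers averaged 8.52 at E11 and 11.62 at E15 (6 of 10 higher) and duct markers 9.50 and 11.01 (5 of 8 higher), and their part was not tested. The list of related genes gave 1 higher and 12 lower.

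Endocrine commitment was read at E15, where endocrine progenitors were set against progenitors of the same stage. There 27 members were higher and 7 lower, against 10.7% and 11.8% of all genes, and in all 34 the 3 and 3 arrays did not overlap (median of members 0.47, of all genes -0.03). Cadps rose most (6.04, SE 0.264, adjusted p = 6.02e-21, limma), from 5.05, 6.20 and 5.11 to 11.60, 11.70 and 11.17. Rab37 (4.92), Snap25 (4.67, SE 0.317, adjusted p = 2.99e-15), Syt7 (4.45) and Syt13 (3.72, SE 0.183, adjusted p = 1.93e-19) followed. In each of these genes every endocrine progenitor array lay well above every progenitor array.

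All roles were represented. Of the 9 Rab and Sytl genes 8 were higher, including Rab3c (2.34), Rab27a (2.30), Rab3a (1.98) and Sytl4 (1.64), and 7 of 13 synaptotagmins were higher with none lower. The 3 SNARE genes that were higher were Snap25, Stx1a (1.5) and Vamp2 (1.14, or 0.98 without E15 progenitor replicate 3). Cplx2 rose by 2.34 (SE 0.294, adjusted p = 2.50e-08, limma), from 11.56, 11.29 and 10.08 to 13.48, 13.53 and 12.95, and was thus already bright in E15 progenitors. The 7 that fell were Rab27b (-2.65), Rab32 (-2.61), Rims1 (-1.94), Cadps2 (-1.90), Rab38 (-1.43), Vamp5 (-1.40) and Stxbp6 (-1.24). Cadps2, the paralog of Cadps, went from 9.99, 9.91 and 10.05 to 7.86, 8.14 and 8.24 while Cadps rose (SE 0.231, adjusted p = 1.34e-08, limma). Acinar markers went from a mean of 11.62 to 9.58 in this comparison (3 of 10 lower) and duct markers from 11.01 to 9.54 (5 of 8 lower, 1 higher), and their part was not tested. Of the related genes 13 were higher, led by Rimbp2 (6.73), Ptprn2 (5.45) and Syn2 (4.78), and Mlph, a Rab27a effector, was lower (-1.15).

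Neurog3 is the transcription factor that starts the endocrine program, and the cells that lack it were compared with endocrine progenitors of the same stage. Endocrine progenitors were higher than null cells in 25 members and lower in 9, against 14.2% and 18.7% of all genes (median of members 0.24, of all genes -0.10), and 33 of the 34 had no overlap. Syt13 was at 6.85, 6.52, 6.32 and 6.65 in null cells, 6.67 below endocrine progenitors (SE 0.171, adjusted p = 2.38e-28, limma) and also under the E15 progenitors. Cadps was at 4.78, 4.05, 4.04 and 4.50 (difference 7.15, SE 0.247, adjusted p = 2.05e-24) and Snap25 at 6.14, 5.10, 5.20 and 5.33 (difference 5.35, SE 0.296, adjusted p = 4.55e-18). Every null array of these genes was under every E11 and endocrine progenitor array. Snap91 (3.49), Syt7 (3.19), Rims2 (3.12) and Rab37 (2.81) were higher in endocrine progenitors as well, and Vamp2 (1.85) and Stx3 (1.76) among the SNAREs.

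There were 6 members that were higher in endocrine progenitors than in E15 progenitors but were not called against null cells: Cplx2, Rab3a, Rab3b, Rab39, Stx1a and Sytl1. Cplx2 stood at 12.96, 12.88, 12.61 and 12.46 in null cells, which overlapped the 12.95 of 1 endocrine progenitor array (difference 0.59, 95% interval 0.04 to 1.15, adjusted p = 0.0645, limma). Its other probes differed by 1.14 and 1.22 and were called. Rab3a was at 8.89, 9.23, 9.08 and 9.25 in null cells against 9.98, 9.74 and 9.64, a difference of 0.67 that passed the test (adjusted p = 0.000407) and not the 2-fold limit. Stx1a differed by 0.91, and by 1.05, a call, without null replicate 2.

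The 9 members that were lower in endocrine progenitors than in null cells were Rab32 (-2.31), Vamp5 (-2.07), Rab38 (-1.83), Rab27b (-1.80), Unc13d (-1.60), Rims4 (-1.58), Rims1 (-1.30), Stx19 (-1.20) and Cadps2 (-1.18). Of these, 6 (Cadps2, Rab27b, Rab32, Rab38, Rims1 and Vamp5) were also lower against E15 progenitors. Rims4 varied within the null cells (5.83, 7.05, 8.22 and 8.33) and overlapped. Unc13d, the priming factor of blood cells, and Vamp5 were highest or nearly so in null and duct cells, where macrophage markers were bright: all 16 tested markers were lower in endocrine progenitors, and the summed list averaged 10.90 to 11.74 over null arrays and 5.79 to 5.97 over endocrine progenitor arrays. Over the 13 population means Unc13d correlated with that list at r = 0.75, Stx11 at 0.70 and Vamp5 at 0.67. Vamp5 correlated about as closely with duct (0.67), endothelial (0.66) and acinar markers (0.66), and was highest in P1 beta cells (8.22). Unc13d and Stx11 correlated with duct markers at 0.56 and 0.52. Acinar markers averaged 12.26 in null cells against 9.58 (8 of 10 lower in endocrine progenitors) and duct markers 10.52 against 9.54 (4 of 8 lower, 1 higher), and 7 of 12 endothelial markers were lower. Of 7 tested neural and glial markers 3 were higher in endocrine progenitors and none lower. The part of these lists was not tested. The related genes gave 13 higher and 2 lower.

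**Figure D4:**
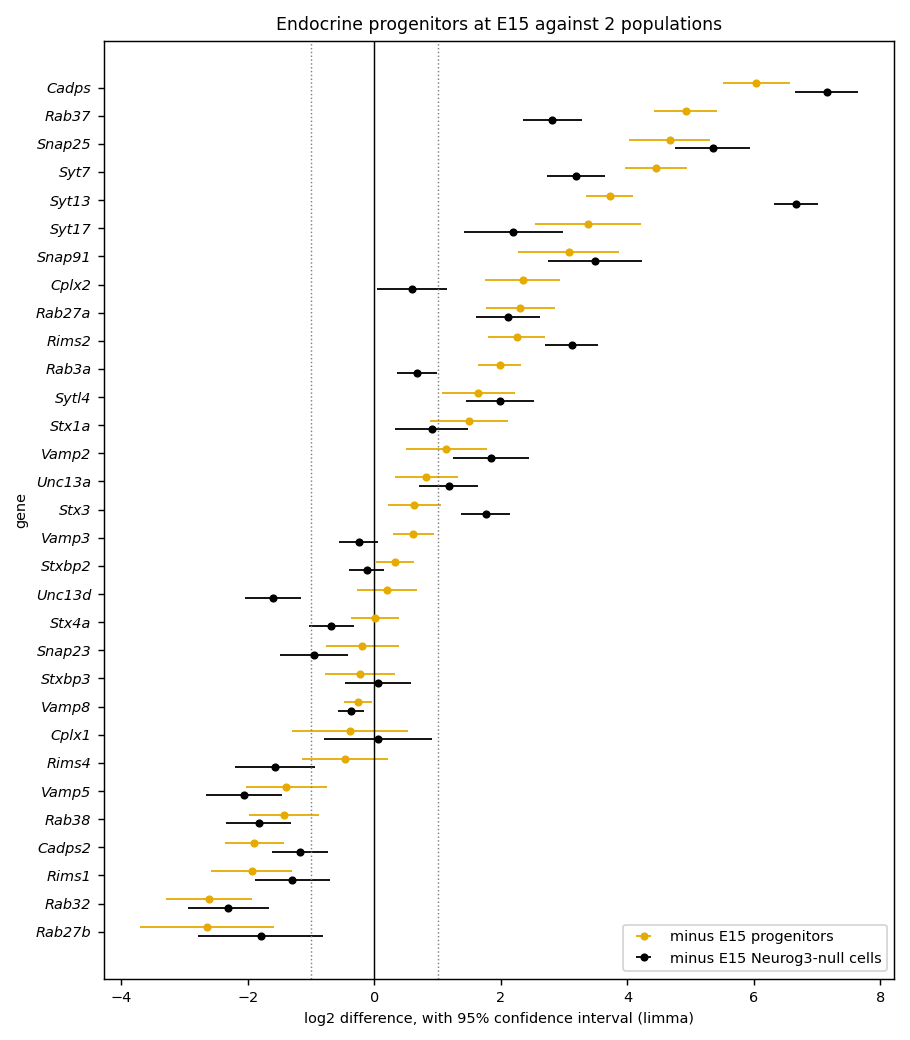
Log2 differences of endocrine progenitors from E15 progenitors and from Neurog3-null cells (x axis) for 31 named members (rows), with 95% intervals from the limma fit. Cadps, Snap25 and Syt13 lie right of 3 in both contrasts, Cplx2, Rab3a and Stx1a lie closer to 0 against null cells, and Rab27b, Rab32, Rims1 and Cadps2 lie left of -1 in both.

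From endocrine progenitors to E15 beta cells 11 members were higher and none lower, against 6.69% and 4.57% of all genes (median of members 0.30, of all genes 0.01). Without the 2-fold limit 6 were lower at an adjusted p below 0.05 by limma and 9 at an unadjusted p below 0.05; the methods' t-test called 0 lower. Rims3, a Rims relative without the Rab3-binding part, rose from 6.75, 6.39 and 6.42 to 9.63, 9.84, 10.25 and 10.40 (difference 3.51, SE 0.278, adjusted p = 1.28e-12, limma). Sytl4 rose from 9.61, 9.28 and 9.46 to 12.67, 12.53, 12.76 and 12.77 (3.23, SE 0.265, adjusted p = 3.36e-12). Both groups of arrays were tight and well apart. Syt16 (1.85), Rab3b (1.81), Syt4 (1.67), Rab37 (1.55), Rab27a (1.44), Rab3a (1.28), Snap25 (1.28), Syt9 (1.25) and Rab39 (1.11) made up the rest. Cadps (0.20, adjusted p = 0.643), Syt13 (0.12, adjusted p = 0.693), Syt7 (-0.24) and Cplx2 (-0.27) were not called, and their levels were already bright in endocrine progenitors. Macrophage markers averaged 5.90 in endocrine progenitors and 7.30 in E15 beta cells (11 of 16 higher), endothelial markers 5.12 and 6.6 (9 of 12 higher) and mesenchymal markers 8.87 and 10.21 (7 of 12 higher), and their part was not tested. Among the related genes 5 were higher and 1 was lower.

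Maturation of beta cells was read as P15 and adult cells (8 arrays) against E15, E17 and P1 cells (10 arrays). There 9 members were higher and 10 lower, against 6.37% and 14.8% of all genes (median of members 0.29, of all genes -0.05), and 10 of the 19 had no overlap. Syt4, a synaptotagmin with reduced calcium binding, rose most (2.52, SE 0.162, adjusted p = 2.18e-16, limma). It lay between 7.31 and 8.19 in all fetal and newborn beta arrays, at 11.30, 10.44, 9.62 and 9.73 at P15 and at 10.05, 10.55, 10.28 and 10.07 in adults, so the step fell between P1 and P15. Cadps2 (1.61), Sytl1 (1.59), Rims3 (1.58), Stxbp5l (1.17) and Syt5 (1.16) were higher too, and so was Rab3a (1.09), which went from 10.12 to 11.35 before P15 to 11.51 to 12.17 after.

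The members that were lower in P15 and adult beta cells included Syt17 (-2.11), Syt16 (-1.76), Sytl2 (-1.66), Rab30 (-1.44), Rab33a (-1.39) and Stx6 (-1.36). Stx1a fell by 1.25 (SE 0.178, adjusted p = 1.33e-07, limma), with stage means of 11.49, 11.55, 10.92, 10.16 and 9.99. Sytl4 differed by -0.02. Mesenchymal markers fell in the same comparison (12 of 12 lower, median -4.94), as did endothelial markers (12 of 12, with means of 6.6, 10.14 and 10.93 at E15, E17 and P1 and of 6.11 and 6.07 at P15 and in adults). Macrophage markers averaged 7.30, 8.62 and 9.84 at the earlier stages and 7.61 and 11.29 at the later ones (5 of 16 higher), and 6 of 10 acinar markers were higher. Neural and glial markers averaged 7.52, 8.27 and 8.24 at the earlier stages and 6.37 and 6.64 at the later ones (6 of 7 lower, median -2.01). Over the 13 population means Stx1a correlated with that list at r = 0.72 and with the endocrine list at 0.83. Syt17 did so at 0.71 and 0.62. The part of these lists was not tested. In P15 against E15 beta cells alone, 5 of the 9 stayed called higher and 7 of the 10 lower. Among the named members Stxbp5l (0.01, adjusted p = 0.984, limma), Rab3a (0.89), Rab30 (-0.38, adjusted p = 0.194), Rab33a (-0.50, adjusted p = 0.173) and Stx6 (-0.98) lost their call there. Of the related genes 7 were higher, with Mlph at 2.76 and Sv2a at 1.56, and 2 were lower, with Doc2b, a calcium sensor, at -2.90.

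In alpha cells 10 members were higher in adults than at P1 and 7 lower, against 6.87% and 15.7% of all genes (median of members 0.20, of all genes -0.03), with no overlap in 16 of the 17. Sytl4 fell by 3.74 (SE 0.233, adjusted p = 2.29e-16, limma), from 11.75, 10.48, 11.47 and 12.11 to 8.69, 7.36, 7.87, 7.63 and 6.99. Rims3 (-1.83) and Rab32 (-4.06) were lower too. The adult alpha levels of Sytl4 thus sat at those of acinar and duct cells, 1 array slightly above. These values are of the brightest Sytl4 probe, and its other probe was not called between adult beta and adult alpha cells (below). Syt11 (2.14), Rab38 (1.79), Syt9 (1.58), Unc13a (1.43), Sytl1 (1.40) and Syt4 (1.29) rose. Macrophage (11 of 16), mesenchymal (12 of 12), endothelial (12 of 12) and duct markers (7 of 8) were lower in adult alpha cells. So were 2 of 10 acinar markers and 5 of 7 neural and glial markers (list means 8.40 at P1 and 6.37 in adults). The part of these lists was not tested. Of the related genes 5 were higher and 3 lower.

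Beta and alpha cells were then set against each other at each age. At P1, 11 members were higher in beta cells and 10 lower, against 13.7% and 6.39% of all genes (median of members 0.01, of all genes 0.07; no overlap in 19 of 21). Sytl1 (1.87), Stx4a (1.82), Rab3d (1.68), Rab34 (1.67), Syt11 (1.62) and Rab30 (1.48) were highest, and Syt16 (-1.74), Snap91 (-1.66), Stxbp5l (-1.64), Cadps2 (-1.62), Rab36 (-1.19) and Rab3c (-1.17) lowest. Sytl4 (1.16) was higher and Rims2 (-1.02) lower. Without P1 alpha replicate 2, Sytl4 (0.83), Rab3c (-0.97) and Rims2 (-0.95) were not called, and Rims2 was not called without P1 beta replicate 2 (-0.99) or 3 (-0.91) either. In P1 beta cells 15 of 16 macrophage, 8 of 12 mesenchymal and 8 of 12 endothelial markers were higher. So were 2 of 10 acinar and 2 of 8 duct markers, and the part of these lists was not tested.

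In adults 6 members were higher in beta cells and 8 in alpha cells, against 12.0% and 5.61% of all genes (median of members 0.06, of all genes -0.01), with no overlap in 13 of the 14. Sytl4 stood at 12.23, 12.63, 12.44 and 12.43 in adult beta cells, 4.72 above adult alpha cells (SE 0.233, adjusted p = 3.18e-19, limma), although its other probe differed by only 0.30 and was not called. Rims3 stood at 11.45, 11.46, 11.26 and 11.43 in beta against 7.30, 7.25, 6.87, 7.56 and 7.18 in alpha cells (4.17, SE 0.244, adjusted p = 4.22e-17). Rab3d (2.72, SE 0.346) and Sytl1 (1.98) were also higher in beta cells. Higher in alpha cells were Syt16 (-3.50, SE 0.281, adjusted p = 3.12e-13), Sytl2, another Rab27 effector (-2.55), Rab38 (-2.33), Rab3c (-2.30), Syt9 (-1.95), Syt17 (-1.84), Unc13a (-1.23) and Stx1a (-1.06). The last was not called without adult beta replicate 4 (-0.99), adult alpha replicate 1 (-0.98) or adult alpha replicate 2 (-0.76). Syt16 was at 4.60, 3.91, 4.62 and 4.31 in beta and at 6.70, 8.50, 8.17, 7.94 and 8.01 in alpha cells. Snap25 (-0.15), Cadps (-0.35), Syt13 (0.28) and Cplx2 (-0.04) were not called between the adult cell types.

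All 16 tested macrophage markers were higher in adult beta than in adult alpha cells (list means 11.29 and 5.76), so P15 beta cells, at 7.30 to 7.61 with E15 beta and P1 alpha cells, were also set against adult alpha cells. Acinar (8 of 10), duct (6 of 8) and mesenchymal markers (7 of 12) were higher in adult beta cells too. Duct markers averaged 10.04 in adult beta, 8.24 in P15 beta and 7.09 in adult alpha cells. Over the 13 population means Rab32 correlated with the duct list at r = 0.93 and with the macrophage list at 0.48. The part of these lists was not tested. Rab32 was at 9.48, 9.56, 9.65 and 9.54 in adult beta cells but at 6.07, 4.59, 4.44 and 5.54 at P15, and its difference of 4.70 became 0.31 (adjusted p = 0.393, limma). Stx11, at 7.86, 7.32, 7.05 and 8.91 in adult beta cells and 1.93 higher there, became -0.72. Stx1a (-0.90), Syt17 (-0.91) and Unc13a (-0.87) kept their direction and fell short of 2-fold. In all, 4 of 6 and 5 of 8 stayed called, Sytl4, Rims3 and Rab3d among them. Of the related genes 6 were higher in adult beta cells, with Mlph at 2.88 and Erc2 at 2.22, and 2 were lower, with Sv2b at -2.54.

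**Figure D5:**
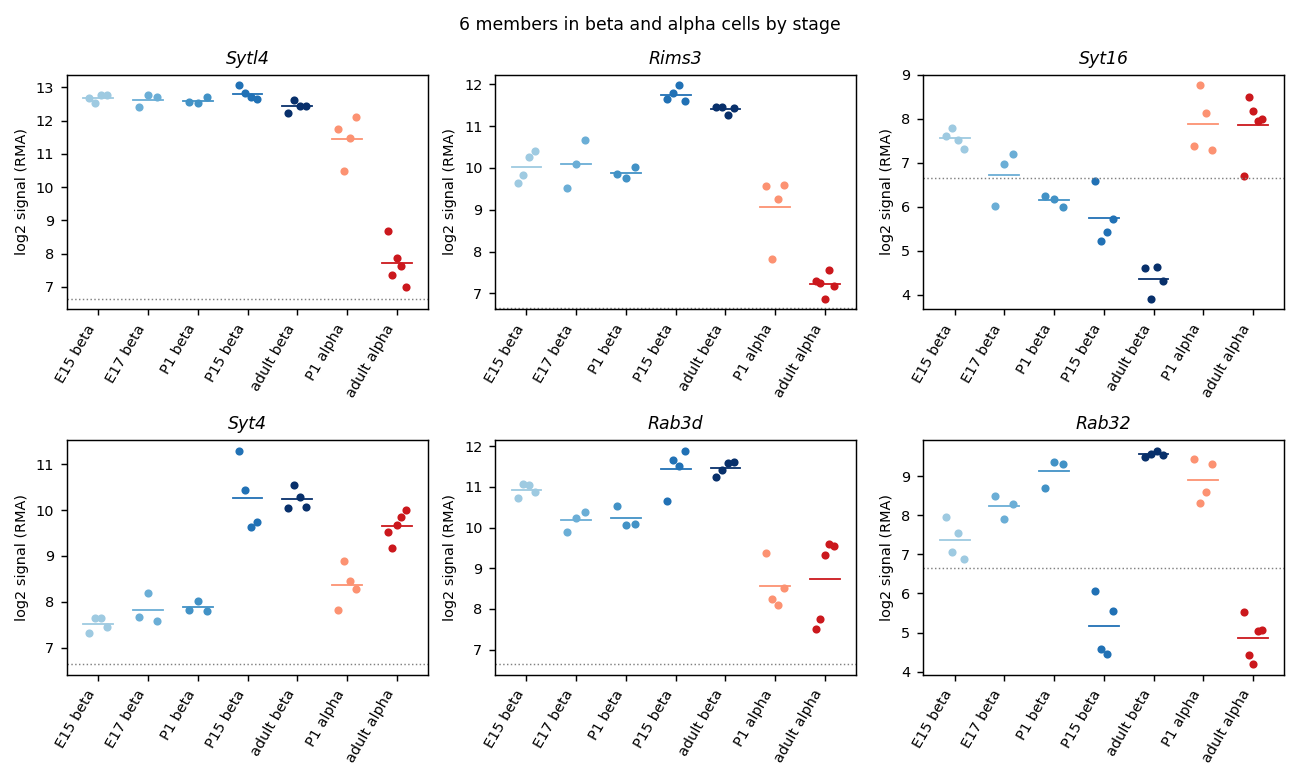
Log2 levels of Sytl4, Rims3, Syt16, Syt4, Rab3d and Rab32 by stage (x axis) in beta and alpha arrays (points), with the level of 100 on the linear scale as a dotted line. Sytl4 and Rims3 are high in every beta stage and low in adult alpha cells, Syt16 is lower at later beta stages and high in both alpha stages, and the P15 beta and adult alpha arrays of Rab32 lie under the dotted line.

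The change from P1 to adult differed between the cell types in 28 members, tested as the alpha change minus the beta change (12 higher and 16 lower, against 11.6% and 11.8% of all genes; median of members -0.10, of all genes 0.07). Sytl4 (-3.57) changed by -3.74 in alpha and -0.17 in beta cells, and Rims3 (-3.36) by -1.83 and 1.53. The Sytl4 values are again of its brightest probe, and its other probe was not called between the adult cell types. Stxbp5l (-2.43) changed by -0.29 and 2.14, and Rab3a (-1.53) by 0.10 and 1.63. Sytl2 (2.55) changed by 0.74 and -1.81, Rab34 (2.31) by 0.98 and -1.33, and Stx1a (1.25, or 0.95 without adult alpha replicate 2) by 0.32 and -0.93. With P15 beta in place of adult beta cells, Rab32 (-4.50) became -0.10 (adjusted p = 0.879, limma), Syt16 (1.76) became 0.38 (adjusted p = 0.521) and Stx11 (-2.40) became 0.25, and 10 of the 12 and 10 of the 16 stayed called. All 16 tested macrophage markers and 6 of 8 duct markers gave a lower value in this test (1 duct marker a higher one). Of 12 endothelial markers 7 gave a higher value, and of 12 mesenchymal markers 3 gave a higher and 4 a lower one. The part of these lists was not tested. The related genes gave 2 higher and 9 lower.

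Acinar cells, which secrete digestive enzymes, were set against E15 progenitors. In acinar cells 5 members were higher and 11 lower, against 4.63% and 7.06% of all genes (median of members -0.23, of all genes -0.02), all without overlap. Rab3d (1.92) and Rims4 (1.91) were highest, followed by Stxbp5 (1.43), Rab27a (1.38) and Rab39b (1.12, or 0.98 without acinar replicate 2 and 0.99 without progenitor replicate 3). Syt13 (-2.98), Cplx2 (-2.56), Rims2 (-2.18), Snap25 (-2.08), Syt17 (-1.99) and Cadps (-1.65) were lowest. By the methods' t-test Rab3d (adjusted p = 0.0832), Rab39b (0.0724), Cplx2 (0.0524), Snap25 (0.0661) and Cadps (0.0841) did not pass. Rims2 was at 6.27, 6.48 and 5.91 in acinar cells, under every progenitor array. Rab27b and Vamp8 were bright in both and were not called. Endothelial markers averaged 9.15 in acinar cells and 5.40 in E15 progenitors, and their part was not tested. Among the related genes 3 were higher and 2 lower.

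Adult duct cells differed from adult alpha and beta cells in the most members of any comparison made here, and in the most probes as well (34.2% of those tested). They were higher in 14 members (18.2%) and lower in 31 (40.3%), against 17.7% and 17% of all genes (median of members -0.61, of all genes -0.09), with no overlap in 41 of the 45. The share of members that were higher was thus near that of all genes. Snap25 (-8.37, SE 0.233), Cadps (-7.58, SE 0.195), Syt13 (-7.25, SE 0.135), Rab37 (-6.55), Syt14 (-5.44) and Rims2 (-5.32) were lowest in duct cells. Stx1a differed by -1.12 (-0.97 without adult alpha replicate 2), with levels of 9.29, 9.17, 9.50 and 9.66, and Cplx2 (-3.22) was still at 10.67, 10.09, 10.44 and 9.95. Stx11, a SNARE of blood cells, was 4.29 higher (SE 0.222, adjusted p = 1.00e-19, limma), at 11.26, 10.95, 11.06 and 11.18. Rab27b (3.67), Rab32 (3.49), Rims1 (2.95), Rab30 (1.87) and Vamp5 (1.76) were higher too, as were Unc13d (1.63), Snap23 (1.30), Cadps2 (1.28) and Stx3 (1.20). Macrophage (14 of 16 tested), acinar (9 of 10, with 1 lower) and endothelial markers (6 of 12) were higher in duct cells too. Acinar markers averaged 12.49 in duct, 12.15 in adult beta and 9.29 in adult alpha cells. The part of these lists was not tested. Against adult alpha cells alone, 13 of the 14 and 29 of the 31 stayed called. Of the related genes 1 was higher and 19 lower.

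Over all 12 comparisons, 62 of the 77 tested members were called at least once, a share that was not counted for all genes. The 15 that were not were Cplx1, Rab33b, Rab35, Snap29, Stx8, Stx16, Stx18, Stxbp4, Syt1, Syt2, Syt8, Unc13b, Vamp1, Vamp3 and Vamp7, of which Stx8, Stx16, Stx18 and Vamp7 serve membrane traffic inside the cell. Vamp8, the acinar granule SNARE, had population means between 11.56 and 12.06 except in P1 alpha cells (10.84, with arrays at 11.12, 10.88, 10.58 and 10.78). It was called once, 1.07 higher in P1 beta than in P1 alpha cells (0.99, no call, without P1 alpha replicate 3).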

How the data were processed

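RNA from sorted cells was amplified (PicoPure extraction, NuGEN Ovation V2) and hybridised to Affymetrix whole-genome mouse expression arrays. The deposited values are log2 signals that the authors made from the scans with RMA (justRMA in R 2.11.1, per the labels), which corrects the background, quantile-normalises the 48 arrays together and summarises each probe set; it compresses low values. Array medians lay between 6.58 and 6.88, and 49.1% to 52.6% of probes were above 100 on the linear scale. The number of arrays limits the precision. No pair of arrays held identical values (0 pairs).

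Of 45101 probes, 34958 had 1 gene symbol, 932 several and 9211 none in the platform annotation, which can be old. All 83 members matched RefSeq by gene ID, and 55 had several probes, of which the brightest was used. Levels of different probes were not compared with each other.

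Probes above 100 in at least 1 array (32078) were fitted in limma 3.58.1 (R 4.3.3) as 13 population means over 48 arrays, with 35 residual and 3.55 prior degrees of freedom and Benjamini-Hochberg adjustment over all of them. A call required an adjusted p below 0.05 and a log2 difference of at least 1. Members that passed only through the population where they are high had to differ, so shares are read beside those of all genes. Most arrays held pooled pancreata. Labels do not say that the pools of one population came from separate animals, and p-values then measure the spread between these arrays. In data simulated for endocrine against E15 progenitors, 85.1%, 94.0% and 98.5% of probes changed by 1.5, 2 and 3 (log2) were recovered, with 4 false calls among 31878 unchanged probes.

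Named members were the core genes of each role and up to 6 of the largest calls in each direction of a comparison; other members were named after their values were seen, to complete a count. The members and lists were chosen with earlier results of these data known. Alternatives were the filter, another quantile normalization, array weights, the replicate number as a block, the probe choice, the methods' t-test, the limit on the difference, only the populations compared and each array left out. Only between E15 and E11 progenitors did all arrays of equal replicate number correlate beyond the limit set (0.11 to 0.15 in 3 pairs). These cells came from different reporter mice and stages, so the numbers do not pair animals there. Python 3.11.15, pandas 2.3.3, numpy 2.4.6 and matplotlib 3.10.9 were used for tables and figures.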

Additional observations from a re-analysis of the deposited data

Results flagged for a closer look

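Among 20 core members, 160 groups of 4 or 5 arrays were searched for an array that stood apart from the others of its population, and 14 did; chance alone gives about 1 in 20. In P15 beta cells replicate 1 was low for Cplx2 (12.49, others 13.56 to 13.70), Rab3a (11.51, others 12.08 to 12.17) and Rims2 (10.79, others 11.37 to 11.48). In adult alpha cells replicate 2 was low for Stxbp2 (10.79, others 11.12 to 11.18), Stxbp3 (9.53, others 10.40 to 10.70) and Syt13 (12.51, others 13.22 to 13.44), and high for Snap23 (9.28, others 7.19 to 7.64). In E15 beta cells Cplx2 was low in replicate 1 (12.48, others 13.20 to 13.27) and Vamp2 high in replicate 2 (11.60, others 11.29 to 11.30). In adult beta cells Stx4a was high (10.55, others 10.20 to 10.24) and Stxbp3 low (9.61, others 10.12 to 10.18) in replicate 1, and Vamp2 was high in replicate 2 (12.08, others 11.44 to 11.53). In Neurog3-null cells Rims2 was high in replicate 2 (8.04, others 7.33 to 7.38) and Vamp3 in replicate 1 (12.99, others 12.54 to 12.61). Leaving out any of these arrays reversed no named difference.

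The change from P1 to adult differed between alpha and beta cells, by the test of the difference itself, in 17 named members. The alpha change minus the beta change was -3.57 for Sytl4, -3.36 for Rims3, -4.50 for Rab32, -2.43 for Stxbp5l, -2.40 for Stx11, -1.61 for Cadps2, -1.53 for Rab3a, -1.03 for Cplx2 and -1.00 for Stxbp2. It was 2.55 for Sytl2, 2.31 for Rab34, 2.26 for Rab38, 1.76 for Syt16, 1.72 for Syt11, 1.57 for Rab33a, 1.41 for Stx4a and 1.25 for Stx1a. With P15 in place of adult beta cells Rab32, Stx11, Syt16, Cplx2 (-0.90) and Stxbp2 (-0.95) were no longer called. Stxbp2 also lost its call in 7 of the fits with 1 array left out (-0.92 to -0.99): P1 beta replicate 2 or 3, adult beta replicate 3 or 4, P1 alpha replicate 3 or 4, or adult alpha replicate 2. Cplx2 lost it without P1 beta replicate 2 (-0.96) or 3 (-0.79) or adult beta replicate 4 (-0.99), and Stx1a without adult alpha replicate 2 (0.95).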

How the results depend on the processing

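The alternatives with P15 beta cells, with adult alpha cells alone or without the populations rich in macrophage or mesenchymal markers were chosen after seeing the data. With P15 in place of adult beta cells Stx11 reversed, to -0.72 against adult alpha cells and to 0.25 in the difference of changes. P15 against E15 beta cells gave 5 members higher in place of 9. Fewer probes tested (above 100 in at least 24 arrays) left 2 members lower in endocrine cells, 4 lower in endocrine progenitors than null cells, 6 lower in P15 and adult than in earlier beta cells, 4 lower in adult beta than alpha cells, 9 higher in duct cells and 7 higher in the difference of changes. E15 beta cells had 1 member lower than endocrine progenitors with quantile normalization again, with array weights and with the replicate block, and 0 to 2 with 1 array left out, the most without E15 beta replicate 1. In acinar cells the methods' t-test called 3 members higher and 5 lower, and the probe with the highest variance gave 3 higher. With no limit on the difference, 50 members were higher and 18 lower in endocrine cells, 12 higher in E15 than E11 progenitors, 19 lower in endocrine progenitors than null cells, 23 higher and 6 lower in E15 beta cells, 38 higher and 17 lower in P15 and adult than in earlier beta cells, 30 higher and 14 lower in adult alpha cells, 20 lower in P1 beta than alpha cells, 22 higher and 17 lower in adult beta than alpha cells, and 18 lower in acinar cells. The cause was not tested, beyond the number of genes that the filter and the limit let through.

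The replicate number as a block moved the probes called between E15 and E11 progenitors, the only comparison past the limit on correlation, from 3630 to 3603. Over all named results the block changed 2 of 343, both to a call. With 1 array left out, 4169 of 4231 named values kept their side of the limits, 41 lost it, 21 gained it and 0 reversed. The methods' t-test was not run for the difference of changes, which has no form with 2 groups. Low levels limit the members with no population above 100, and log2 values near the floor understate their differences.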
